A study of Mus musculus with 8 samples.

Results

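Oxidative phosphorylation couples the transfer of electrons along the inner mitochondrial membrane to the making of ATP. Its nuclear-encoded subunits were followed here in mouse embryonic stem cells with and without loss of Htatsf1, an RNA-binding protein. Members were taken by gene symbol alone: symbols starting with Ndufa, Ndufb, Ndufc, Ndufs or Ndufv other than the Ndufaf assembly factors, with Uqcr, with Cox4 to Cox8 or with Atp5, together with Sdha to Sdhd and Cyc1. This gave 86 of the 20388 gene identifiers that had a usable value, 1 entry for each: 38 in complex I, 4 in complex II, 9 in complex III, 18 in complex IV and 17 in complex V. Of these 86, 81 reached an FPKM (fragments scaled to the length of the transcript and to the mapped fragments of the library) of 1 in at least 2 libraries and were tested among 11867 genes. The 5 others were Ndufs5, Cox4i2, Cox6a2, Cox8b and Cox8c.

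The stem cells came from tatsf1 flox/flox CreERT2 mice, so all 4 groups carried the floxed gene and CreERT2, a Cre recombinase that acts once tamoxifen is given. The groups were tamoxifen for 72 h, ethanol (the vehicle) for 72 h, tamoxifen for 48 h and ethanol for 48 h, with 2 libraries each. The labels do not give the promoter behind CreERT2, the number of cell lines, or whether both libraries of a group stem from different cultures. The p-values below therefore reflect the scatter between libraries, part of which may be technical. Tamoxifen-treated cells without the floxed gene were not analysed here, so an effect of tamoxifen itself cannot be told apart from that of the deletion.

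The cells were grown on mouse embryonic fibroblasts, whose RNA is also in the libraries. Htatsf1 itself stood at 4.38 ± 0.36 FPKM with tamoxifen and 22.7 ± 0.02 with ethanol at 72 h, and at 3.95 ± 0.25 with tamoxifen and 22.3 ± 0.92 with ethanol at 48 h (SD, n = 2 each). All 36 fibroblast markers tested were detected, and their summed level was 2258 to 2423 FPKM with tamoxifen and 1192 to 1233 with ethanol at 72 h, and 1688 to 1720.4 with tamoxifen and 1174 to 1216 with ethanol at 48 h. At 72 h 35 of them rose (97.22%), against 20.1% of all genes tested. At 48 h 34 rose (94.44%), against 7.88%. Of 15 stem cell markers, Sox2 is listed at 0 in every library. Of the 14 tested, 8 fell (57.14%) and none rose at 72 h, and 1 fell (7.14%) at 48 h, Tdgf1. Among all genes tested, 18.5% fell at 72 h and 4.47% at 48 h. The summed level of the list was 3600.2 to 4046 FPKM with tamoxifen and 4519 to 4672 with ethanol at 72 h. The part of the feeder cells in the results on the subunits was not tested. In bulk samples, fewer cells of a type and less RNA per cell cannot be told apart. Libraries rested on 8.99 to 16.8 M fragments, inferred from the intervals around the FPKM, and the median tested subunit on 658 to 1328 of them.

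Complex I (NADH dehydrogenase) and complex II (succinate dehydrogenase) feed electrons to ubiquinone, complex III (cytochrome bc1) passes them to cytochrome c, complex IV (cytochrome c oxidase) hands them to oxygen, and complex V (ATP synthase) uses the resulting proton gradient. All but complex II also need subunits encoded in mitochondrial DNA. Stem cells in the pluripotent state are known for strong glycolysis beside this respiration. The transcription factors NRF1, GABP (also called NRF2) and YY1 are known regulators of the nuclear-encoded subunit genes.

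Promoters are shown for complex I genes on which the later results turn: Ndufa7, Ndufa13 and Ndufb3, which were lower with tamoxifen at both times, Ndufs8, whose change differed between the times, and Ndufb6, Ndufa8, Ndufa10 and Ndufab1, all the complex I genes that were higher at 72 h. No promoter was matched for Ndufs1, which was also lower at both times. Each window runs from 250 bases before to 50 bases after the start of the gene, 5′ to 3′ on the gene's strand, from RefSeq on GRCm38.p6. The windows are chr17:33824322-33824621 (plus strand) for Ndufa7, chr8:69901971-69902270 (minus strand) for Ndufa13, chr1:58586147-58586446 (plus strand) for Ndufb3, chr19:3912725-3913024 (minus strand) for Ndufs8, chr4:40279372-40279671 (minus strand) for Ndufb6, chr2:36049289-36049588 (minus strand) for Ndufa8, chr1:92473709-92474008 (minus strand) for Ndufa10 and chr7:122101799-122102098 (minus strand) for Ndufab1. Capitals mark a match to 1 of 3 motifs searched on both strands: GCGCATG for NRF1, CCGGAAG for GABP and AAGATGG for YY1, whose first letters are the last letters of the GABP motif, so that matches can overlap.
Ndufa7: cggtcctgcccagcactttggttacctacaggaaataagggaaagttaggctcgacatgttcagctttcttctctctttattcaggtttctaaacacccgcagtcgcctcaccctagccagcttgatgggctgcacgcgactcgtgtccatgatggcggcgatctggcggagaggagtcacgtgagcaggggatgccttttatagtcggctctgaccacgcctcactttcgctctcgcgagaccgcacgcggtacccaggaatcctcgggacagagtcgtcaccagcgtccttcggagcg
Ndufa13: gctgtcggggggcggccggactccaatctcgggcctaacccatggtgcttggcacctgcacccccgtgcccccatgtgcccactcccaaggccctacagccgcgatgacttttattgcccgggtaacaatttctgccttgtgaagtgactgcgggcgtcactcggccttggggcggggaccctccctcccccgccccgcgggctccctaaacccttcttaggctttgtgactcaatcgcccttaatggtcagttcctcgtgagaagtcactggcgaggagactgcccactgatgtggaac
Ndufb3: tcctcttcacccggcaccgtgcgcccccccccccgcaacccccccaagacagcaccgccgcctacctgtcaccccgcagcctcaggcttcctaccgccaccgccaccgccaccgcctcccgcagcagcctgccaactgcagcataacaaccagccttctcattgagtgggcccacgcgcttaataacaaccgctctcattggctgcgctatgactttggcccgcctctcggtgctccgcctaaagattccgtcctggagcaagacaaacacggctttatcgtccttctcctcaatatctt
Ndufs8: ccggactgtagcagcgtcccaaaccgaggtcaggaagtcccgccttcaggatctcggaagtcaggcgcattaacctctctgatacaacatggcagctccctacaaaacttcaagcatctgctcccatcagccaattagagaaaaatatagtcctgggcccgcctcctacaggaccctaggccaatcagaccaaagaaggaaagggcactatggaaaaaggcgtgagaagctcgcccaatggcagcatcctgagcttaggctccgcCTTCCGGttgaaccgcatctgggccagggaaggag
Ndufb6: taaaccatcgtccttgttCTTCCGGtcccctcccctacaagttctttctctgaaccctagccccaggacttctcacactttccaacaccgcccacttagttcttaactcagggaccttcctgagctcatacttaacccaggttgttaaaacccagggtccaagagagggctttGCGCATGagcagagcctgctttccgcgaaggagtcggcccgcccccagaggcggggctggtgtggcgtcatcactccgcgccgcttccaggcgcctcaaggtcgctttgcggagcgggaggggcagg
Ndufa8: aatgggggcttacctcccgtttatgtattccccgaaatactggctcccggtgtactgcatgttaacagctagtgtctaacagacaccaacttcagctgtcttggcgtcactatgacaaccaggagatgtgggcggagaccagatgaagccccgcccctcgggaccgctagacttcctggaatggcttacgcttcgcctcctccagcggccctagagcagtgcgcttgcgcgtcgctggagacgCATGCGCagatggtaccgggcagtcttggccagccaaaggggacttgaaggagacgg
Ndufa10: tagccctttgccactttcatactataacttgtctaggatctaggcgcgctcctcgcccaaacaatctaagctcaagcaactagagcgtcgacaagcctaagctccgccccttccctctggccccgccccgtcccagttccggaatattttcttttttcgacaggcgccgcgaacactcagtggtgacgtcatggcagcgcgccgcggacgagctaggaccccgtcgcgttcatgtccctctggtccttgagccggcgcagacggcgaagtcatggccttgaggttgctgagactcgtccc
Ndufab1: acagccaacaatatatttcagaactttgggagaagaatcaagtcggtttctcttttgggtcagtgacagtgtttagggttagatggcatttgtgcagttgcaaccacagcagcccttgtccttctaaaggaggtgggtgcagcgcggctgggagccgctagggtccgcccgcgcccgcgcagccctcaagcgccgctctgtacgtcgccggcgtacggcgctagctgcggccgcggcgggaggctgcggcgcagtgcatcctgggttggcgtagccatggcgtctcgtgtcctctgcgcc

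No capitals appear in Ndufa7, Ndufa13 and Ndufb3, which fell, or in Ndufa10 and Ndufab1, which rose: these letters are not in their windows. Ndufs8 holds the GABP letters on the opposite strand just after the start of the gene, Ndufb6 holds the GABP letters on the opposite strand and the NRF1 letters, and Ndufa8 holds the NRF1 letters on the opposite strand. Promoters were matched for 70 of the 86 members (81.4%). The NRF1 letters were present in 13 of these 70 (18.57%), against 7.62% of 8905 genes tested here that had a promoter. The GABP letters were present in 15 (21.43%), against 18.52% of the same genes, and the YY1 letters in 11 (15.71%), against 7.48%. At least 1 of the 3 motifs was present in 45.71% of the members' windows and in 29.98% of the windows of those 8905 genes. By call at 72 h, the NRF1 letters were in 4 of the 6 members with a window that rose (Ndufb6, Ndufa8, Uqcr11 and Atp5l), in 2 of the 9 that fell (Ndufa6 and Sdhb) and in 7 of the 53 that were not called. The GABP letters were in 3, 2 and 10 of these members, and the YY1 letters in 0, 2 and 9. No relation of the letters to the changes was tested. These are matches of letters and not binding sites.

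The subunit genes were among the more abundant messages in every group. FPKM is scaled by transcript length, but levels can be set side by side between genes only roughly. With tamoxifen at 48 h Ndufa11 had 563 scaled counts in the authors' deposited table and 18.2 FPKM. Ndufa2, of similar length (572 against 545 nucleotides), had 375 scaled counts and 56.7 FPKM. The median member stood at 94.1 FPKM averaged over the 8 libraries, against 10.4 for all genes tested, and 78 of the 81 tested members were above that median of all genes. Together the members held 2.36% to 2.63% of all FPKM in a library. By complex, the median level was 60.0 FPKM in complex I, 83.6 in complex II, 141 in complex III, 191 in complex IV and 196 in complex V.

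**Figure D1:**
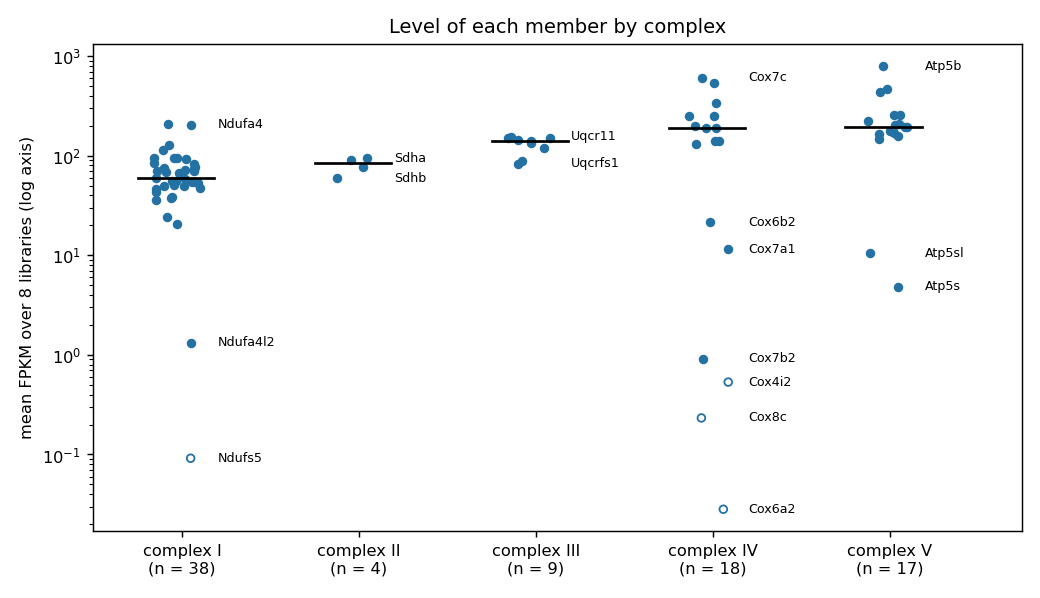
Mean level of each member over the 8 libraries, in FPKM on a log axis, by complex, with the median of the tested members of each complex as a bar. Complexes IV and V reach the highest levels, and several tissue-restricted forms of complex IV are listed lowest, Cox8b, listed at 0, being off the log axis. Open circles were not tested.

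Levels spread most widely within complexes I, IV and V. The highest were Atp5b, the catalytic beta subunit of ATP synthase, at 792 FPKM, and Cox7c, a small subunit of complex IV, at 605 FPKM. Complex II was the most even, between 59.3 FPKM for Sdhb and 94.3 for Sdha. Complex III lay between 83.3 FPKM for Uqcrfs1, the Rieske iron-sulfur protein, and 156 for Uqcr11. Complex I ran up to 207 FPKM for Ndufa4, which is now counted by many as a subunit of complex IV.

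Several complex IV subunits have forms restricted to heart, muscle, lung or testis, and most of these were listed near or at 0 beside their widespread partners. Cox8b was listed at 0 in all 8 libraries and Cox6a2 averaged 0.028 FPKM, beside 251 FPKM for Cox8a and 191 for Cox6a1. A value listed at 0 need not mean that the message is absent, since the same files also list Sox2 and Ecsit, an assembly factor of complex I, at 0 throughout. Cox8c averaged 0.23 FPKM, Cox4i2, the lung form, 0.53 FPKM, and Cox7b2, a testis form, 0.92 FPKM, beside 540 FPKM for Cox4i1 and 139 for Cox7b. The exceptions were Cox7a1, the heart and muscle form, at 11.5 FPKM beside 131 for Cox7a2, and Cox6b2, the testis form, at 21.5 FPKM beside 190 for Cox6b1. Ndufa4l2, known as a hypoxia-induced relative of Ndufa4, averaged 1.33 FPKM. Ndufs5 was listed at 0 to 0.26 FPKM, whereas the authors' deposited table of scaled counts gives it 174 with tamoxifen and 175 with ethanol at 72 h. The deposited files thus differ for this gene, and it was left untested.

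Summed over each complex, levels overlapped between the treatments at 72 h, and at 48 h those of complexes I, III and V were lower in both tamoxifen libraries. Complex I summed to 2713 ± 187 FPKM with tamoxifen and 2806 ± 153 with ethanol at 72 h, and to 2356 ± 85 with tamoxifen and 2556 ± 24 with ethanol at 48 h (SD, n = 2 each). Complex II summed to 330 ± 18 FPKM with tamoxifen and 346 ± 5 with ethanol at 72 h, and to 303 ± 11 with tamoxifen and 305 ± 0.39 with ethanol at 48 h. Complex III summed to 1211 ± 56 FPKM with tamoxifen and 1175 ± 10 with ethanol at 72 h, and to 1104 ± 21 with tamoxifen and 1161 ± 34 with ethanol at 48 h. The sums of complex II overlapped at both times. Complex IV summed to 3288 ± 195 FPKM with tamoxifen and 3242 ± 129 with ethanol at 72 h, and to 2684 ± 120 with tamoxifen and 2809 ± 90 with ethanol at 48 h. Complex V summed to 4104 ± 122 FPKM with tamoxifen and 4121 ± 135 with ethanol at 72 h, and to 3909 ± 102 with tamoxifen and 4096 ± 57 with ethanol at 48 h. The sums of complex IV also overlapped at 48 h. These sums were not tested.

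At 72 h of tamoxifen, 7 of the 81 tested members rose and 11 fell, and 63 did not pass an adjusted p of 0.05. Among all genes tested, 20.1% rose and 18.5% fell, 38.5% in all, so the share of members called was below that of all genes. No member changed by 1 or more on the log2(FPKM + 1) scale, which understates the change of low genes. Every change given here is on that scale, save those from the authors' deposited tables. The median change of the members was -0.03, with an interquartile range of 0.22, against -0.01 and 0.38 for all genes. Leaving out single libraries moved that median between -0.08 and 0.04. Both tamoxifen libraries were below both ethanol libraries for 23 members and above them for 12, against 34.5% and 35.2% of all genes. By complex, 4 rose and 8 fell of 37 in complex I, 1 fell of 4 in complex II, 1 rose of 9 in complex III, 1 rose of 14 in complex IV, and 1 rose and 2 fell of 17 in complex V. Without tamoxifen 72 h replicate 2 the falls numbered 17, and without ethanol 72 h replicate 2 the rises numbered 4. Without the filter on low values, where 20388 genes were tested, 10 of the 18 calls were lost: Ndufa7, Ndufa13, Ndufa6, Ndufb3, Ndufs4, Ndufa4l2, Ndufab1, Ndufa8, Uqcr11 and Atp5l.

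**Figure D2:**
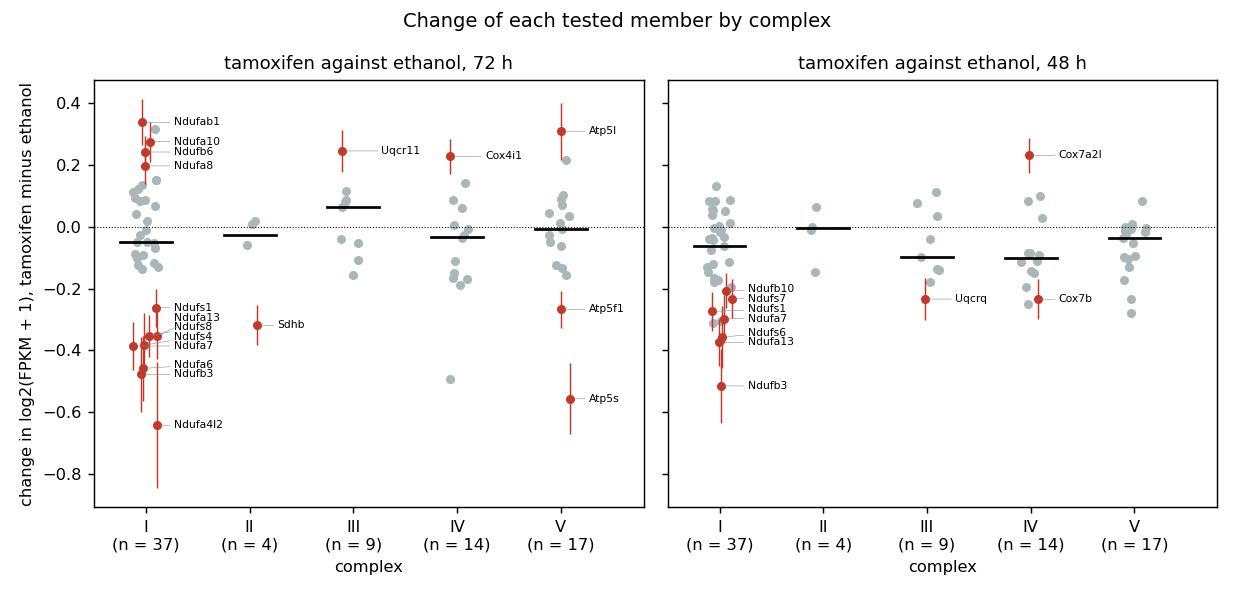
Change of each of the 81 tested members in log2(FPKM + 1), tamoxifen minus ethanol, at 72 h and 48 h by complex. Red points with their standard error passed an adjusted p of 0.05 and are named, grey points did not, and bars are medians. Most calls lie in complex I, which holds 37 of the 81, with both signs at 72 h and with falls alone at 48 h. Of these 37, 32.43% were called at 72 h and 18.92% at 48 h, against 38.5% and 12.4% of all genes.

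In complex I, 4 genes fell at both times, Ndufa7, Ndufa13, Ndufs1 and Ndufb3, which was named after its values were seen. The 48 h call of each was lost when some single libraries were left out, and also without the filter on low values. Ndufs1 is the largest core subunit and carries iron-sulfur clusters of the NADH-oxidizing arm. Ndufa7, Ndufa13 (also called GRIM-19) and Ndufb3 are supernumerary subunits, which surround the core.

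Ndufa7, on chromosome 17 from 33961559 to 33975258 (mm9, as are all positions of genes below), had 185 and 224 FPKM in the tamoxifen libraries and 265 and 267 in the ethanol libraries at 72 h. At 48 h it had 161 and 154 FPKM with tamoxifen and 194.5 and 193 with ethanol. The groups did not overlap at either time, and the change was -0.39 ± 0.08 SE at 72 h (adjusted p = 0.00342) and -0.30 ± 0.08 SE at 48 h (adjusted p = 0.0338). Ndufa13, on chromosome 8 from 72418081 to 72426457, had 67.3 and 64.0 FPKM with tamoxifen and 88.8 and 79.5 with ethanol at 72 h, and 58.5 and 52.5 with tamoxifen and 75.4 and 69.1 with ethanol at 48 h. Again both tamoxifen libraries were lower at each time, and the change was -0.35 ± 0.08 SE at 72 h (adjusted p = 0.00452) and -0.37 ± 0.08 SE at 48 h (adjusted p = 0.0107). Ndufs1, on chromosome 1 from 63190166 to 63223396, had 19.2 and 20.5 FPKM with tamoxifen and 23.4 and 24.7 with ethanol at 72 h, and 23.7 and 24.0 with tamoxifen and 28.4 and 29.7 with ethanol at 48 h. Its change was -0.26 ± 0.06 SE at 72 h (adjusted p = 0.0077) and -0.27 ± 0.06 SE at 48 h (adjusted p = 0.018), with no overlap. Without the filter on low values the adjusted p at 72 h was 0.0575 for Ndufa7 and 0.059 for Ndufa13. The 72 h call of Ndufs1 was lost without ethanol 72 h replicate 2 (adjusted p = 0.0578).

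Ndufb3 had the largest fall at 48 h of all members. It had 50.7 and 64.5 FPKM with tamoxifen and 88.5 and 72.4 with ethanol at 72 h, and 63.4 and 53.6 with tamoxifen and 83.4 and 84.1 with ethanol at 48 h. Both tamoxifen libraries were lower at each time, and the change was -0.48 ± 0.12 SE at 72 h (adjusted p = 0.0106) and -0.51 ± 0.12 SE at 48 h (adjusted p = 0.0204). The 72 h call was lost without tamoxifen 72 h replicate 1 (adjusted p = 0.0815) and without ethanol 72 h replicate 1 (adjusted p = 0.0896).

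Ndufs8, a core subunit that carries iron-sulfur clusters on the path to ubiquinone, fell at 72 h and not at 48 h. It lies on chromosome 19 from 3908863 to 3912774, and its promoter is among those printed above. It had 49.3 and 45.6 FPKM with tamoxifen and 64.1 and 57.7 with ethanol at 72 h, and 47.5 and 45.7 with tamoxifen and 45.9 and 43.9 with ethanol at 48 h. The 72 h ethanol libraries stood above the other 6. The change was -0.35 ± 0.07 SE at 72 h (adjusted p = 0.00236), 0.05 ± 0.07 SE at 48 h (adjusted p = 0.662), and the difference between the times was -0.40 ± 0.09 SE (adjusted p = 0.0471). It was the 1 member called in that difference, against 1.45% of all genes that were called lower and 3.45% called in either direction. At an unadjusted p under 0.05 there were 15 members, against 20.6% of all genes. The call in the difference held without tamoxifen 72 h replicate 1 and was lost without any other single library (adjusted p between 0.0551 and 0.159).

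**Figure D3:**
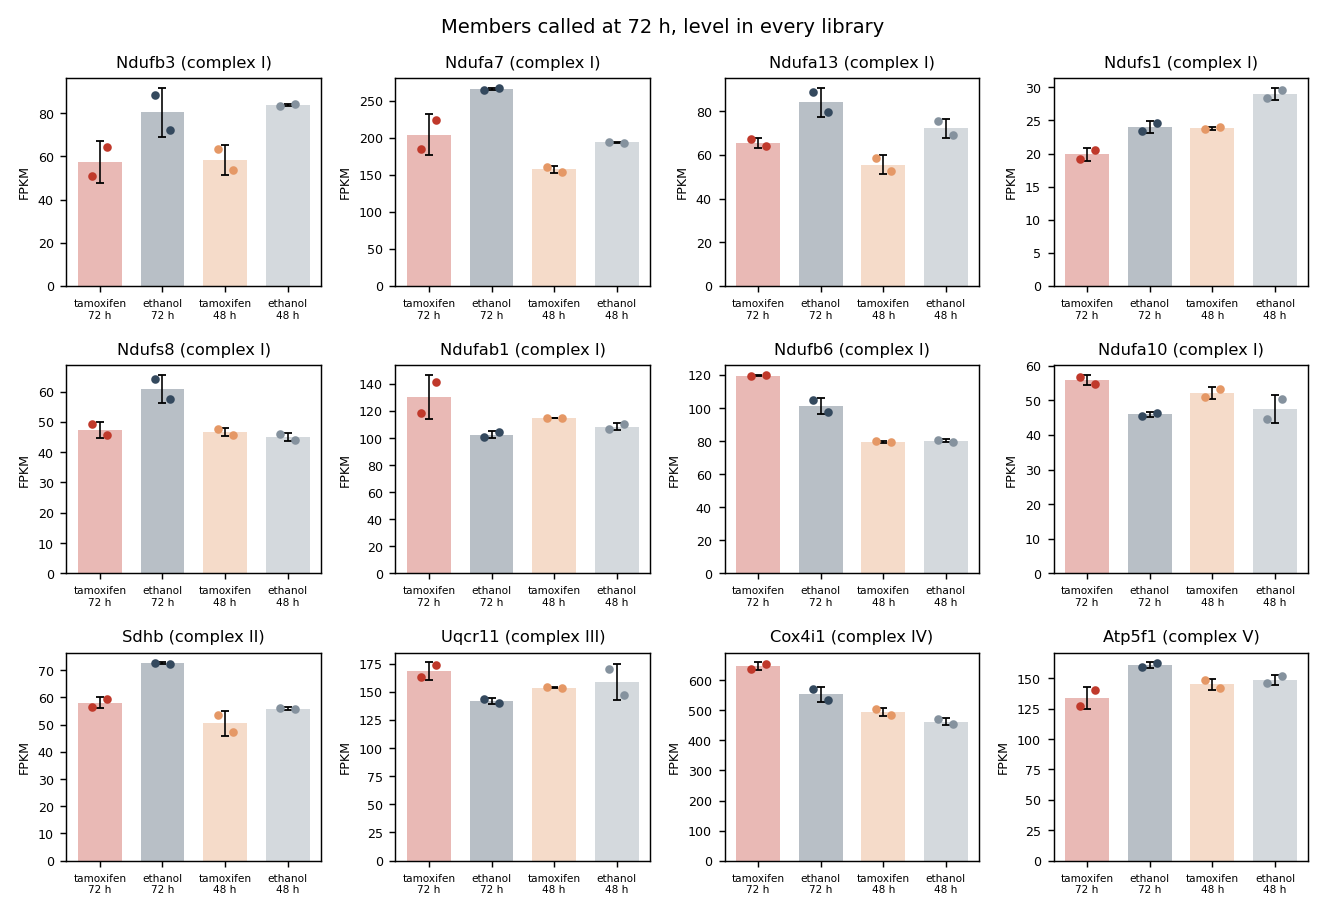
FPKM of 12 members called at 72 h in each library, with bars at the group mean and the SD (n = 2), tamoxifen left of ethanol and 72 h left of 48 h. The 72 h ethanol libraries of Ndufs8, Sdhb, Ndufa7, Ndufa13 and Atp5f1 are above the other 6. Ndufa7, Ndufa13, Ndufb3, Ndufs1 and Sdhb are lower in both tamoxifen libraries at each time.

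The other complex I falls at 72 h were Ndufa6, Ndufs4 and Ndufa4l2, the first 2 of which were named after their values were seen. Ndufa6 had 63.6 and 81.3 FPKM with tamoxifen and 96.3 and 102 with ethanol (-0.46 ± 0.10 SE, adjusted p = 0.00634). Ndufs4, a supernumerary subunit known for its mutations in Leigh syndrome, had 31.6 and 37.5 FPKM with tamoxifen and 42.8 and 47.8 with ethanol (-0.38 ± 0.10 SE, adjusted p = 0.0141). Groups did not overlap for either. Without the filter on low values the adjusted p of Ndufa6 was 0.0966. Without tamoxifen 72 h replicate 1 the adjusted p of Ndufs4 was 0.104, and without ethanol 72 h replicate 2 it was 0.1. Ndufa4l2 had 0.73 and 1.08 FPKM with tamoxifen and 2.09 and 1.83 with ethanol, on 9.1 to 27.1 fragments a library (-0.64 ± 0.20 SE, adjusted p = 0.0293). That call was lost without tamoxifen 72 h replicate 1 (adjusted p = 0.156), ethanol 72 h replicate 1 (0.127) or ethanol 72 h replicate 2 (0.071).

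In the same complex Ndufab1, Ndufa10, Ndufb6 and Ndufa8 rose at 72 h, the last 3 named after their values were seen. Ndufab1, the mitochondrial acyl carrier protein, which also serves lipoic acid synthesis, had 119 and 142 FPKM with tamoxifen and 100.5 and 104 with ethanol (0.34 ± 0.07 SE, adjusted p = 0.00536, or 0.0657 without the filter on low values). Ndufa10 had 56.9 and 54.8 FPKM with tamoxifen and 45.5 and 46.4 with ethanol (0.28 ± 0.07 SE, adjusted p = 0.00748). Ndufb6, of the membrane arm, had 119.5 and 119.8 FPKM with tamoxifen and 105 and 97.6 with ethanol (0.24 ± 0.05 SE, adjusted p = 0.00485). Both tamoxifen libraries were above both ethanol libraries in each of the 3. Ndufa8 had 38.9 and 37.6 FPKM with tamoxifen and 32.3 and 34.2 with ethanol (0.20 ± 0.06 SE, adjusted p = 0.0249). The call of Ndufa8 was lost without tamoxifen 72 h replicate 1 (adjusted p = 0.101) and without ethanol 72 h replicate 1 (adjusted p = 0.14). Ndufa1 had the second largest value, 0.32 ± 0.16 SE, but its libraries overlapped, at 46.1 and 57.3 FPKM with tamoxifen and 48.3 and 34.9 with ethanol (adjusted p = 0.149).

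Complex II, whose subunits are all nuclear-encoded, changed in 1 of its 4 genes. Sdhb, the iron-sulfur subunit, on chromosome 4 from 140517186 to 140535107, had 56.6 and 59.5 FPKM with tamoxifen and 72.8 and 72.4 with ethanol at 72 h. At 48 h it had 53.7 and 47.3 FPKM with tamoxifen and 56.2 and 55.6 with ethanol. The 72 h ethanol libraries were above all others, and the change was -0.32 ± 0.06 SE at 72 h (adjusted p = 0.00346) and -0.15 ± 0.06 SE at 48 h (adjusted p = 0.173). Its tamoxifen libraries were below both ethanol libraries at each time, and the difference between the times was not called (-0.17 ± 0.09 SE, adjusted p = 0.318). Sdha, the flavoprotein, had 94.1 and 92.3 FPKM with tamoxifen and 92.3 and 93.2 with ethanol at 72 h, a change of 0.01. Sdhc, a membrane anchor, had 79.1 and 90.9 FPKM with tamoxifen and 89.2 and 87.4 with ethanol, and Sdhd, the other anchor, 86.7 and 99.9 with tamoxifen and 87.8 and 96.0 with ethanol. All 3 overlapped between the treatments at 72 h.

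In complex III, Uqcr11, a small subunit, rose at 72 h with 163 and 174 FPKM with tamoxifen and 144 and 140.1 with ethanol (0.25 ± 0.07 SE, adjusted p = 0.0173). This call was lost without tamoxifen 72 h replicate 2 (adjusted p = 0.085), ethanol 72 h replicate 1 (0.0513) or ethanol 72 h replicate 2 (0.0851). Uqcrc2, one of the core proteins, had a change of -0.16 ± 0.07 SE that did not pass (adjusted p = 0.092). In complex IV, Cox4i1, the widespread form of its largest nuclear-encoded subunit, on chromosome 8 from 123192190 to 123198109, had 639 and 656 FPKM with tamoxifen and 570.5 and 535 with ethanol at 72 h. At 48 h it had 504.5 and 486 FPKM with tamoxifen and 471 and 454 with ethanol. Both tamoxifen libraries were higher at each time, and the change was 0.23 ± 0.06 SE at 72 h (adjusted p = 0.00938) and 0.10 ± 0.06 SE at 48 h, which did not pass (adjusted p = 0.288). The authors' deposited table gives a log2 change of -0.01 at 48 h. The 72 h call was lost without ethanol 72 h replicate 2 (adjusted p = 0.0755). Cox7b2 had the largest value of the complex at 72 h in either direction, -0.49 ± 0.19 SE, on 2 to 10 fragments a library, and did not pass (adjusted p = 0.0654).

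In complex V, Atp5f1, the b subunit of the peripheral stalk, on chromosome 3 from 105745781 to 105763166, fell at 72 h. It had 127 and 140.1 FPKM with tamoxifen and 159 and 162 with ethanol, whereas the 48 h libraries had 148 and 142 with tamoxifen and 146 and 152 with ethanol. The 72 h tamoxifen libraries were the lowest of the 8 (-0.27 ± 0.06 SE, adjusted p = 0.00541). Atp5l, subunit g of the membrane sector, had 262 and 239 FPKM with tamoxifen and 223.2 and 182 with ethanol (0.31 ± 0.09 SE, adjusted p = 0.0233). The call was lost without tamoxifen 72 h replicate 1 (adjusted p = 0.125) and without ethanol 72 h replicate 2 (adjusted p = 0.19). At 48 h the values of Atp5l went the other way, at 211 and 203 FPKM with tamoxifen and 248 and 220 with ethanol. Both tamoxifen libraries were lower there, but the fall was not called (-0.17 ± 0.09 SE, adjusted p = 0.257). The change of Atp5l at 72 h minus that at 48 h was 0.48 ± 0.13 SE, also not called (adjusted p = 0.0758). Atp5s was taken in by its symbol though it is not an established subunit. At 72 h it had 4.51 and 5.38 FPKM with tamoxifen and 8.49 and 7.01 with ethanol (-0.56 ± 0.11 SE, adjusted p = 0.00376). Atp5sl, also taken in by symbol, had a change of 0.04. Without these 2 genes the counts at 72 h were 7 rises and 10 falls. Atp5b, the most abundant member, had 798.5 and 788 FPKM with tamoxifen and 840.5 and 801 with ethanol, a change of -0.05 that did not pass (adjusted p = 0.503).

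At 48 h of tamoxifen, 1 member rose and 9 fell of 81, and 71 did not pass. Among all genes, 7.88% rose and 4.47% fell, 12.4% in all. The share of members called in either direction, 12.35%, was near that, but the directions differed. Of all genes called 935 rose and 531 fell, whereas 9 of the 10 calls of members were falls. In complex I 18.92% were called, all of them falls. The median of the members was -0.07 and that of all genes 0.02, and 59 members lay below 0 and 22 above. With median-ratio scaling all genes had 818 rises and 768 falls in place of 935 and 531, and the members had 1 and 10. Both tamoxifen libraries were below both ethanol libraries for 36 members and above for 11, against 26.1% and 32.7% of all genes. The falls were 7 in complex I and 1 each in complexes III and IV. None of the 10 calls held without each library in turn: without tamoxifen replicate 1 and 2 the falls numbered 3 and 0, and without ethanol replicate 1 and 2 they numbered 0 and 1. The rise was lost without any of these 4.

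Beside the 4 complex I genes already described, Ndufs6, Ndufs7 and Ndufb10 fell at 48 h, all 3 named after their values were seen. Ndufs6, a zinc-binding subunit, had 69.7 and 61.5 FPKM with tamoxifen and 87.1 and 81.2 with ethanol (-0.36 ± 0.10 SE, adjusted p = 0.0457). Ndufs7, the core subunit next to the ubiquinone site, had 48.9 and 50.8 FPKM with tamoxifen and 56.4 and 61.1 with ethanol (-0.23 ± 0.06 SE, adjusted p = 0.0369). Ndufb10 had 49.5 and 49.3 FPKM with tamoxifen and 58.9 and 55.6 with ethanol (-0.21 ± 0.06 SE, adjusted p = 0.0399). The groups did not overlap in any of the 3. Uqcrq, a subunit of complex III near its ubiquinone sites, had 108 and 97.1 FPKM with tamoxifen and 125 and 117 with ethanol (-0.23 ± 0.07 SE, adjusted p = 0.0455). Cox7b had 133 and 125 FPKM with tamoxifen and 156 and 148 with ethanol (-0.23 ± 0.06 SE, adjusted p = 0.0388). Both were lower in the 2 tamoxifen libraries, and neither was called at 72 h.

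The rise at 48 h was Cox7a2l, on chromosome 17 from 83901257 to 83913673, known as a factor that joins complexes III and IV into supercomplexes. It had 104 and 99.3 FPKM with tamoxifen and 89.8 and 83.4 with ethanol at 48 h (0.23 ± 0.06 SE, adjusted p = 0.0239), and 189 and 183 with tamoxifen and 192 and 187 with ethanol at 72 h. The groups overlapped at 72 h. In complex V no member was called at 48 h in the fit used here. Atp5e, a small subunit of the rotor's central stalk, had the smallest p there, with -0.23 ± 0.08 SE (adjusted p = 0.0906). The authors' deposited table, from the same libraries, called Atp5e, Atp5g3, Atp5j, Atp5k and Atp5l lower at 48 h. Their log2 changes there ran from -0.19 (Atp5j) to -0.36 (Atp5k).

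Across both times 57 of the 81 members were called at neither, 4 fell at both, and none rose at both. Changes in the authors' deposited tables, whose log2 ratio is ethanol over tamoxifen as deposited and was turned round here, gave 8 members higher and 16 lower of 84 at 72 h, where 32% of 17011 genes were called. At 48 h the authors' deposited table gave 0 members higher and 20 lower of 85, where 11.9% of 16729 genes were called. Of the calls made here, 16 of 18 at 72 h and 8 of 10 at 48 h were also called in the authors' deposited tables. Those not called there were Ndufa8 and Ndufa4l2 at 72 h, and Cox7a2l and Ndufb10 at 48 h. The sign of the change in those tables was the same for 74 of 81 members at 72 h and for 69 of 81 at 48 h. These tables come from the same libraries.

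More members differed between the times than between the treatments. In ethanol, 30 members rose and 8 fell at 72 h against 48 h, beside 38% and 19.2% of all genes, 57.2% in all, with a median of 0.11 for the members and 0.11 for all genes. The scale matters here: with median-ratio scaling, which moved the median of all genes by -0.11, 13 members rose and 23 fell, with quantile normalization 33 rose and 7 fell, and without the filter on low values 15 rose. Without ethanol 48 h replicate 2 or ethanol 72 h replicate 1 the rises numbered 19. The time also goes with a number in the names of the deposited files, whose meaning is not given in the sources used here, so time and whatever that number marks cannot be told apart. This comparison shares the ethanol 72 h libraries with tamoxifen against ethanol at 72 h, and no relation was drawn between them.

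Cox6b2 had the largest change of any member with time, with 36.3 and 32.9 FPKM in the 72 h ethanol libraries and 8.71 and 11.4 in the 48 h ones (1.70 ± 0.21 SE, adjusted p = 8.34e-05). With tamoxifen it had 26.9 and 34.9 FPKM at 72 h and 13.5 and 7.63 at 48 h. All 72 h libraries were above all 48 h libraries. Cox7a2l had 192 and 187 FPKM at 72 h and 89.8 and 83.4 at 48 h in ethanol (1.12 ± 0.06 SE, adjusted p = 6.97e-07). Ndufs8 and Sdhb were also higher in ethanol at 72 h, by 0.43 and 0.37.

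The 3 genes of subunit c, the ring through which protons turn ATP synthase, encode the same mature protein. Atp5g1 fell over time, with 121 and 128 FPKM at 72 h and 182 and 202 at 48 h in ethanol (-0.62 ± 0.09 SE, adjusted p = 0.000303). Atp5g3 fell too, with 226.3 and 226.8 FPKM at 72 h and 298 and 285 at 48 h (-0.36 ± 0.07 SE, adjusted p = 0.00106). Atp5g2, the most abundant of them, had 470.4 and 414 FPKM at 72 h and 417 and 432 at 48 h, and overlapped (0.06, adjusted p = 0.564). With tamoxifen Atp5g1 had 117 and 141 FPKM at 72 h and 203 and 178 at 48 h. None of the 3 was called between tamoxifen and ethanol at either time in the fit used here. The authors' deposited table called Atp5g3 lower at 48 h, with a log2 change of -0.22.

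**Figure D4:**
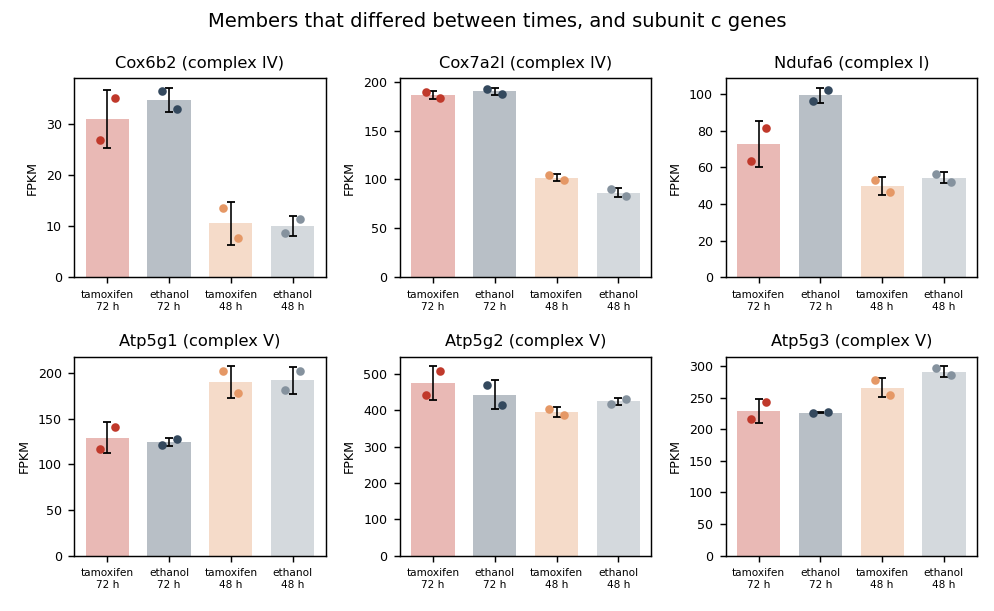
FPKM of Cox6b2, Cox7a2l, Ndufa6 and the 3 subunit c genes in each library, with bars at the group mean and the SD (n = 2), tamoxifen left of ethanol and 72 h left of 48 h. Cox6b2, Cox7a2l and Ndufa6 are higher at 72 h with either treatment, Atp5g1 and Atp5g3 are lower, and Atp5g2 overlaps between the ethanol groups.

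Subunit messages are short, and library effects can depend on length. The median member transcript measured 763 nucleotides, against 2926 for all tested genes with a length, taking the longest annotated transcript. Across the 81 members, the Spearman correlation of length with the tamoxifen change was -0.17 at 72 h and 0.40 at 48 h. The 52 members under 1000 nucleotides had a median change of -0.10 at 48 h and the 29 longer ones -0.01. Among all genes tested, those under 1000 nucleotides had a median of -0.04 at 48 h and longer ones 0.02. Members share libraries and are not independent, so these are descriptions. Differences between the 2 libraries of 1 group, replicate 2 minus replicate 1, had correlations with length of -0.13 in the tamoxifen and 0.50 in the ethanol libraries of 72 h, and of 0.00 in the tamoxifen and 0.34 in the ethanol libraries of 48 h. Over 11778 tested genes these differences had correlations with length of -0.33 with tamoxifen and -0.03 with ethanol at 72 h. At 48 h these were 0.19 with tamoxifen and -0.08 with ethanol. The part of length in the 48 h result was not tested.

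**Figure D5:**
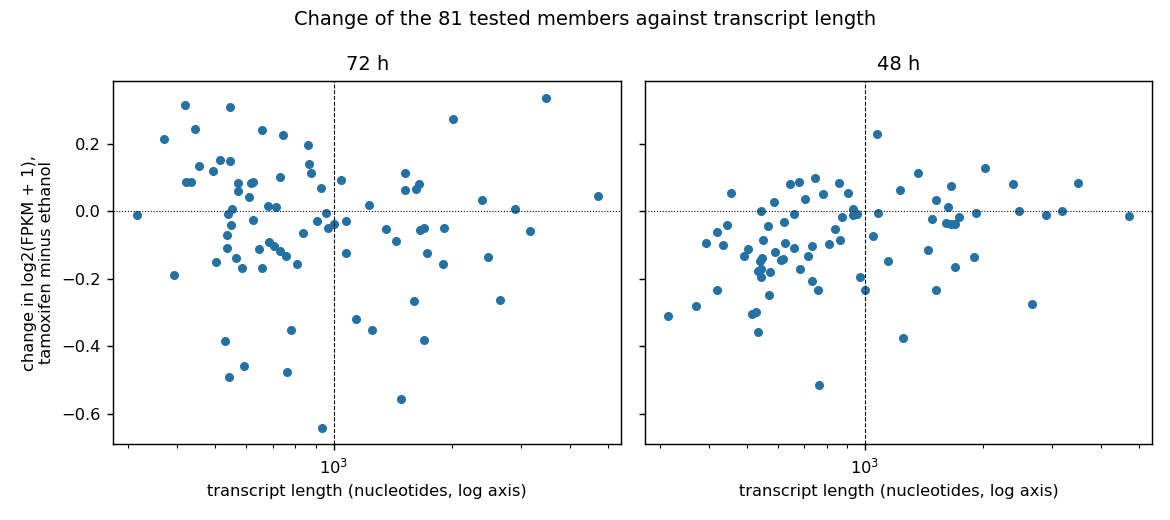
Change of the 81 tested members in log2(FPKM + 1), tamoxifen minus ethanol, against the length of the longest annotated transcript on a log axis, at 72 h and 48 h. At 48 h members under 1000 nucleotides, left of the dashed line, lie lower (median -0.10) than longer ones (median -0.01), and at 72 h their medians are -0.01 and -0.05.

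Neighbouring mitochondrial pathways were read from lists chosen by function. Of 47 tested assembly factors, which build the complexes, 4 rose and 9 fell at 72 h, with a median of -0.13. At 48 h 1 rose and 5 fell. The share called at 48 h, 12.77%, was near the 12.4% of all genes, and 10.64% fell, against 4.47%. Timmdc1, an assembly factor of complex I, had 16.9 ± 0.3 FPKM with tamoxifen and 24.0 ± 0.6 with ethanol at 72 h (-0.48 ± 0.06 SE, adjusted p = 0.000295). Sco2, a copper chaperone of complex IV, had 13.1 ± 1.2 FPKM with tamoxifen and 9.22 ± 0.57 with ethanol (0.47 ± 0.09 SE, adjusted p = 0.00193). Of 16 tested regulators of mitochondrial biogenesis, 6 fell and none rose at 72 h and none was called at 48 h. Among them Tfb1m, which methylates mitochondrial ribosomal RNA, had 7.07 ± 0.44 FPKM with tamoxifen and 11.8 ± 1.0 with ethanol (-0.66 ± 0.12 SE, adjusted p = 0.00157), and Pprc1, a coactivator, 41.8 ± 2.6 with tamoxifen and 52.6 ± 2.0 with ethanol (-0.32 ± 0.07 SE, adjusted p = 0.00328).

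Of 14 enzymes of the tricarboxylic acid cycle, which supplies NADH and succinate to complexes I and II, 1 rose and 4 fell at 72 h, and none was called at 48 h. Idh2, the mitochondrial NADP-dependent isocitrate dehydrogenase, had 38.6 and 42.9 FPKM with tamoxifen and 65.0 and 62.9 with ethanol at 72 h (-0.64 ± 0.07 SE, adjusted p = 0.000106). Its change also differed between the times (-0.52 ± 0.10 SE, adjusted p = 0.03). Idh3a, of the NAD-dependent enzyme, had 52.1 ± 2.3 FPKM with tamoxifen and 65.5 ± 4.6 with ethanol (-0.32 ± 0.07 SE, adjusted p = 0.00336). The share of each list called at 72 h, 27.66% of the assembly factors, 37.5% of the regulators and 35.71% of the enzymes, was below that of all genes. The share that fell was 19.15% of the assembly factors, 37.5% of the regulators and 28.57% of the enzymes, against 18.5% of all genes. The 13 subunits encoded in mitochondrial DNA were not analysed here.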

How the data were processed

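Polyadenylated RNA from mouse embryonic stem cells on feeder fibroblasts was sequenced as paired ends, per the labels' protocols. The authors deposited 1 Cufflinks-style file of FPKM values for every library. TopHat 1.4.1, BWA 0.6.1, Cufflinks 1.3.0, DESeq and HTSeq, with build mm9, are named in the submitters' processing notes without their roles. The authors' deposited comparison tables hold group means as a signal of scaled counts, pooled over libraries, with a ratio (fold change), its log2 and p-values, per the file headers. They were described, not retested.

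FPKM were used as deposited. Entries with a status other than OK were left out and the entry of highest mean was kept per identifier. Genes that reached 1 FPKM in 2 or more of the 8 libraries were tested as log2(FPKM + 1) in 1 fit with limma 3.58.1 (statmod 1.5.0, R 4.3.3) with a mean for each of 4 groups, 4 residual degrees of freedom and a mean trend. Tests were two-sided, adjusted by Benjamini-Hochberg over all 11867 genes in each of 4 contrasts, and called at 0.05. Fragments were inferred from the deposited intervals and cover counting error only. Within groups the squared difference of the 2 libraries was 2.69 to 5.89 times the counting variance on average, and the correlation of log2 values was 0.995 to 0.997. Starts count from 0 in the files, so 1 was added. The fit was tested on simulated data.

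The members and lists were chosen with earlier results of these data known. Named genes were, by rule, the 2 of smallest p per complex at each time, the 3 largest changes each way at 72 h, members called in the difference, all of complex II, tissue-restricted forms with partners, subunit c, the highest and lowest levels, and the 2 of smallest p per list. Ndufa6, Ndufa8, Ndufa10, Ndufb3, Ndufb6, Ndufb10, Ndufs4, Ndufs6 and Ndufs7 were named after their values were seen. Alternatives were the pseudocount, filters, scaling, the trend, subsets of libraries, the replicate block and leaving out each library.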

Additional observations from a re-analysis of the deposited data

Results flagged for a closer look

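The tamoxifen change of Ndufs8 differed between the times by -0.40 in log2(FPKM + 1), 72 h minus 48 h, in a test of the difference itself (limma, adjusted p = 0.0471). Both tamoxifen libraries were below both ethanol libraries at 72 h and not at 48 h. The call was lost without 7 of the 8 libraries, the adjusted p then running from 0.0551 to 0.159.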

How the results depend on the processing

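Members called numbered 7 higher and 11 lower at 72 h, 1 and 9 at 48 h, 0 and 1 in the difference, and 30 and 8 in ethanol over time. Without the filter on low values, where 20388 genes were tested, the first 3 comparisons had 3 and 5, 0 and 0, and 0 and 0, and ethanol rises numbered 15. Without the trend, 48 h had 0 and 2 and the difference 0 falls, and a pseudocount of 0.1 gave 0 falls in the difference. With the 48 h libraries alone the 48 h falls numbered 15. Median-ratio scaling gave 13 rises and 23 falls in ethanol. Leaving out 1 library at a time gave 4 to 9 rises and 8 to 17 falls at 72 h, 0 to 1 and 0 to 12 at 48 h, 0 to 4 and 0 to 1 in the difference, and 19 to 32 and 6 to 10 in ethanol. The cause was not tested. The main fit did not use replicate numbers as pairs, and deviations of same-numbered libraries correlated between -0.28 and 0.15. With 2 libraries a group, these correlations cannot show whether the libraries were prepared as pairs. With the replicate block the counts were 7 and 12, 1 and 6, 1 and 1, and 30 and 9. Of the 18 calls at 72 h, 6 (Atp5f1, Atp5s, Ndufa10, Ndufb6, Ndufs8 and Sdhb) held in every alternative, and of the 10 at 48 h none did. With each library left out in turn, 10 of the 18 calls at 72 h held throughout and 8 were lost at least once, and all 10 at 48 h were lost at least once. With 2 libraries a group, the smallest change called at 72 h was 0.20 (Ndufa8).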
